A study of Rattus norvegicus with 6 samples.

Results

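The genes described here build and start the engine that unwinds DNA at the onset of its replication: the helicase subunits Mcm2, Mcm3, Mcm4, Mcm5, Mcm6 and Mcm7, the loading factors Cdc6 and Cdt1, and the activation factors Cdc45 and Mcm10. They were taken by gene symbol, 10 genes of the 17954 in the count tables, and all 10 passed the filter on low counts. Messenger RNA was sequenced from rat cartilage cells of the mandibular condyle, the rounded head of the lower jaw. There were 3 libraries of flat (2D) culture and 3 libraries of condylar organoids, small tissue-like bodies grown in culture. The medium was DMEM with 20% fetal bovine serum for 2D culture and a chondrogenic medium of unstated make-up for organoids. Culture format and medium thus changed together and cannot be told apart, and whether the organoid medium held serum is not stated. The labels give no strain, age, sex or time in culture and name no animal or culture of origin for any library. The p-values therefore measure only how these libraries vary, which may be technical.

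Replication origins are licensed in G1 phase, when the origin recognition complex, Cdc6 and Cdt1 load the ring of Mcm2 to Mcm7 onto DNA in an inactive form. At the start of S phase the ring is joined by Cdc45 and the GINS complex to form the active helicase, with Mcm10 needed for the step to unwinding. Genes of this set are classical targets of the E2F transcription factors, which the retinoblastoma proteins restrain, and they are low in cells that have left the cell cycle. In cartilage, proliferating chondrocytes cycle before they enlarge into hypertrophic cells, which no longer divide.

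The promoters of 8 of the 10 genes were in the RefSeq promoter table (build GRCr8), which gives 250 bases before and 50 bases from each transcript start; Mcm4 and Cdc6 were not in it. Stretches of 7 of them are shown, each chosen to hold at least 1 of the words searched for E2F sites. The Cdt1 promoter also holds such words but is not shown, and further matches in Mcm3, Mcm5 and Mcm7 lie outside the stretches. Letters in capitals are matches to the E2F-type 8-letter words TTTCCCGC, TTTCGCGC, TTTGCCGC or TTTGGCGC, or to TTTGGCGG, on either strand, and matches that overlap run together. Positions are counted from the transcript start, with -1 the last base before it. Each stretch is written 5′ to 3′ on the gene's strand.
Mcm2, chr4:122918095-122918194, minus strand, -100 to -1: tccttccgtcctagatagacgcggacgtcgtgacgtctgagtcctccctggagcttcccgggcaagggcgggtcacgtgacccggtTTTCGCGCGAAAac
Mcm3, chr9:30733745-30733846, minus strand, -100 to 2: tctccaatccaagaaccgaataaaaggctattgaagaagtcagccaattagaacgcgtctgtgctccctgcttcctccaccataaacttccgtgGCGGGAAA
Mcm5, chr19:13488713-13488812, plus strand, -100 to -1: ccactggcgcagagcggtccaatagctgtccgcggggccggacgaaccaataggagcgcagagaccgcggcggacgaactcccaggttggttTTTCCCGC
Mcm6, chr13:42404413-42404512, minus strand, -160 to -61: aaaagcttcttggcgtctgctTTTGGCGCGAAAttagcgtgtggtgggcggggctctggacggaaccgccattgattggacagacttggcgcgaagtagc
Mcm7, chr12:22163179-22163278, minus strand, -100 to -1: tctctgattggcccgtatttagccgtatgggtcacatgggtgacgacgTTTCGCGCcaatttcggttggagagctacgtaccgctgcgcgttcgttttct
Mcm10, chr17:78175287-78175389, plus strand, -100 to 3: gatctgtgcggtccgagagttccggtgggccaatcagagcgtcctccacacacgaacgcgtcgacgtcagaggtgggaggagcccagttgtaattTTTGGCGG
Cdc45, chr11:95690078-95690177, plus strand, -100 to -1: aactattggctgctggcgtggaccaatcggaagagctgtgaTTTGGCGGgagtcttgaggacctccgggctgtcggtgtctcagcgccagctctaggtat

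In the whole windows, 6 of the 8 promoters held at least 1 of the first 4 words, those of Mcm2, Mcm3, Mcm5, Mcm6, Mcm7 and Cdt1, against 2.14% of the 33469 promoters in the table. The latter belong to 27457 genes, more than the 13052 tested for expression, and were not matched to the members. The Cdt1 matches lie after the transcript start, at 8 to 15 and 33 to 40. Mcm10 and Cdc45 held the word TTTGGCGG, which was added to the search after their promoters had been read and which occurs in 0.466% of all promoters. In Mcm2 the words on the 2 strands overlap from -14 to -3. A CCAAT box, the site of the general factor NF-Y, was found on either strand in 6 of the 8, against 37.5% of all promoters. TTTGAA, a word of genes that peak in G2 and M phase, was in 1 of the 8, that of Mcm2, against 18.3%. Of the other lists described below, an E2F-type word was in 4 of 10 promoters of origin recognition and licensing control, 2 of 3 of the MCM relatives, 7 of 16 of the GINS and firing list, 4 of 13 of the E2F and RB list, 8 of 24 of DNA synthesis and 1 of 20 of mitosis. The word TTTGAA was in 14 of the 20 mitosis promoters and 7 of the 13 of the E2F and RB list. The words were thus also found in lists with few or no genes called lower, and differences between lists were not tested. A match is a string of letters, and binding was not measured.

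Every one of the 10 genes was lower in each organoid library than in any 2D library. In all, 3938 of 13052 tested genes (30.2%) stood apart in that direction. By edgeR's quasi-likelihood test with Benjamini-Hochberg adjustment at 0.05, the fall was called for 6 of the 10 genes: Mcm2, Mcm3, Mcm4, Mcm5, Mcm7 and Cdt1. Over all tested genes 12.6% were called lower. The median log2 fold change, organoid over 2D culture, was -2.86 for the 10 genes and -0.0326 for all tested genes (-4.23 and -0.24 in limma-voom). In these bulk libraries fewer dividing cells and less of each transcript per cell cannot be told apart. Levels below are CPM, which are counts relative to library size with TMM scaling, with libraries given in the order 1, 2, 3.

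**Figure D1:**
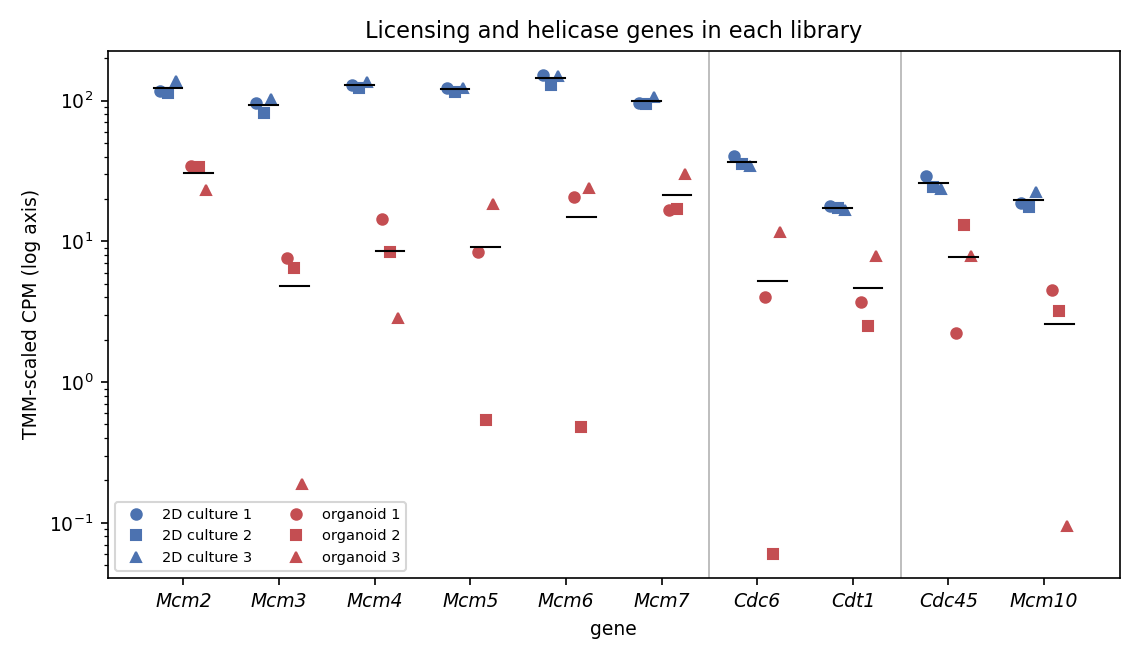
TMM-scaled CPM (log axis) of each gene in the 3 libraries of 2D culture (blue) and the 3 organoid libraries (red), with black bars at the group means and grey lines between the helicase core, the loading factors and the activation factors. All organoid points lie below all 2D points of the same gene, and in 5 genes a single organoid library lies far below the other organoids.

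Mcm2 and Mcm7 fell least within the helicase ring and varied least between organoids. Mcm2, whose N-terminal tail also carries histones at the fork, was at 118, 114 and 139 CPM in 2D culture and 34.3, 33.9 and 23.3 CPM in organoids. The organoids kept between 18.9% and 27.8% of the 2D mean, and the fall was -2.02 ± 0.24 (SE, n = 3 and 3, edgeR adjusted p = 0.00217). Mcm7, a catalytic subunit whose gene also hosts the microRNAs Mir25, Mir93 and Mir106b, was at 96.2, 94 and 106 CPM and at 16.8, 16.9 and 30.1 CPM. Organoid 3 was the highest here and the other 2 did not differ beyond counting error, with a ratio of 1.01 (95% exact interval 0.85 to 1.19). The fold change was -2.21 ± 0.29 (edgeR adjusted p = 0.00343). Both genes kept their call when any 1 of the 6 libraries was left out.

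Mcm3 and Mcm4 had the most negative fitted changes of the 10 genes in edgeR, and both were lowest in organoid 3. Other fits gave other orders: Mcm5 was below Mcm4 in limma-voom (-4.60 and -4.30), and Mcm5 was the lowest of the 10 without organoid 3 (-4.76). Mcm4, part of the catalytic core with Mcm6 and Mcm7, was at 129, 124 and 136 CPM in 2D culture and 14.4, 8.35 and 2.84 CPM in organoids. Its fold change was -3.93 ± 0.58 (edgeR adjusted p = 0.00484), and this call held without any 1 library (-4.53 without organoid 1). Mcm3, whose C-terminal end contacts Cdc6 during loading, was at 96.9, 81.2 and 102 CPM and at 7.66, 6.49 and 0.189 CPM. Organoid 3 held 4 Mcm3 counts against 130 and 108 in organoids 1 and 2, a ratio of 34.3 (95% exact interval 13 to 128, counting error only) between the middle and the lowest organoid. The fold change was -4.29 ± 1.03 (edgeR adjusted p = 0.0233), and the call was lost without 2D culture 1, 2 or 3 (adjusted p = 0.0813, 0.0715 and 0.0799).

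Mcm5 and Mcm6 were instead lowest in organoid 2. Mcm5, which pairs with Mcm2 at the DNA entry gate, was at 123, 116 and 123 CPM in 2D culture and 8.43, 0.541 and 18.4 CPM in organoids. Only 9 Mcm5 counts lay behind the value of organoid 2, and the middle organoid was 15.6 times higher (95% exact interval 7.98 to 34.8). Its fold change was -3.72 ± 0.99 (edgeR adjusted p = 0.0333), with adjusted p = 0.0912 to 0.0999 without a 2D library and 0.0983 without organoid 1. The change was -3.12 without organoid 2 and -4.76 without organoid 3. Mcm6 was at 153, 130 and 150 CPM and at 20.7, 0.481 and 23.8 CPM, with 8 counts in organoid 2 against 352 and 503 in organoids 1 and 3, a ratio of 43.1 (95% exact interval 21.7 to 101) between the middle and the lowest. The groups did not overlap for Mcm6, but the spread between organoids kept it from the call (-3.26 ± 1.06, edgeR adjusted p = 0.062). Without organoid 2 its change was -2.65 with an adjusted p of 0.000464.

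The loading factors differed from each other in how far organoids varied. Cdt1, the factor that brings the Mcm ring to the origin and is held in check by geminin, was at 17.9, 17.3 and 16.8 CPM in 2D culture and 3.71, 2.52 and 7.85 CPM in organoids. The fold change was -1.88 ± 0.49 (edgeR adjusted p = 0.0312). The call was lost without each of 2D culture 1, 2 and 3 (adjusted p = 0.118, 0.11 and 0.112), without organoid 1 (0.0745) and with a weight per group in limma-voom (0.0569). The change was -2.48 without organoid 3. Cdc6, the ATPase that works with the origin recognition complex to load the ring, was at 40.4, 35.2 and 34.4 CPM and at 4.01, 0.0601 and 11.7 CPM. A single count lay behind the organoid 2 value, against 68 and 247 counts in organoids 1 and 3, so the ratio of 66.7 to the middle organoid has a 95% exact interval of 11.6 to 2670. Its fold change of -2.80 ± 1.17 did not pass (edgeR adjusted p = 0.121), and it moved to -2.17 without organoid 2, where it passed (adjusted p = 0.0201), and to -4.17 without organoid 3 (adjusted p = 0.0509). Fractional counts of Cdc6 in 2 libraries of 2D culture are a sign of reads shared with other genes, so its values are less certain.

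Neither activation factor passed the test, although the groups did not overlap. Cdc45, the partner that joins the ring in the active helicase, was at 29.2, 24.5 and 23.6 CPM in 2D culture and 2.24, 13 and 7.85 CPM in organoids. It was the one member whose highest organoid value came from organoid 2, at 50.3% of the 2D mean. Its fold change was -1.74 ± 0.60 (edgeR adjusted p = 0.0713), and it passed without organoid 1 (-1.29, adjusted p = 0.03) and without organoid 2 (-2.30, adjusted p = 0.0272). Mcm10 was at 18.8, 17.5 and 22.6 CPM and at 4.48, 3.18 and 0.0946 CPM, with 2 counts in organoid 3 and a ratio of 33.7 (95% exact interval 8.87 to 285) to the middle organoid. Its fold change was -2.93 ± 1.04 (edgeR adjusted p = 0.0798), and without organoid 3 it was -2.37 with an adjusted p of 0.00596. It was -3.60 without organoid 1.

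The number of members called lower depended on which libraries entered. It was 3 without any 1 of the 2D libraries (Mcm2, Mcm4 and Mcm7 each time), where 2.98% to 3.27% of all tested genes were called lower. It was 5, 9 and 7 without organoid 1, 2 and 3, where 17.1%, 19.2% and 17.3% of all tested genes were called lower. The log2 fold change was negative for all 10 members in each of the 12 alternative fits. The 2D libraries varied little, with highest-to-lowest ratios of 1.06 to 1.29 for the 10 genes, while the edgeR fit uses 1 spread per gene for both groups.

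The 10 genes did not run in 1 order across the organoids, mainly in where organoid 3 stood. Mcm2, Mcm3, Mcm4 and Mcm10 were highest in organoid 1 and lowest in organoid 3. Mcm5, Mcm6, Cdc6 and Cdt1 were highest in organoid 3 and lowest in organoid 2. In these 8 genes organoid 1 was above organoid 2, though Mcm2 was nearly level between them (34.3 and 33.9 CPM). Mcm7 was highest in organoid 3 and lowest in organoid 1, and Cdc45 was highest in organoid 2 and lowest in organoid 1. These orders describe 3 libraries, and for Mcm2, Mcm7 and Cdt1 the lowest and middle organoids differed by less than 1.5 times. No member reached its lowest value in organoid 1 by more than 3.51 times under the middle organoid.

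**Figure D2:**
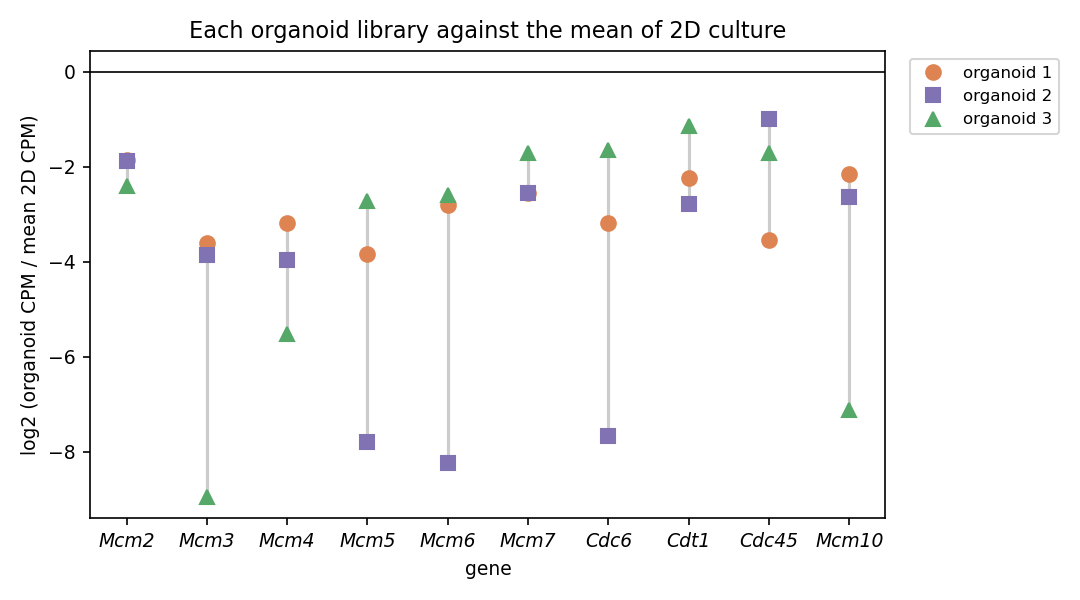
Log2 ratio of each organoid library to the mean of the 3 libraries of 2D culture (y axis) for the 10 genes (x axis), with values under 3 counts set to 3 counts and grey lines joining the organoids of a gene. Mcm3 and Mcm10 drop to -8.94 and -7.11 in organoid 3, and Mcm5, Mcm6 and Cdc6 to -7.80, -8.23 and -7.67 in organoid 2, while Mcm2 stays between -2.41 and -1.85.

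In 5 of the 10 genes (Mcm3, Mcm5, Mcm6, Cdc6 and Mcm10) the lowest organoid lay at least 8 times under the next one, with values under 3 counts set to 3. This threshold was chosen after the values were seen, so the count is a description. The members nearest the threshold were Mcm5 above it, at 15.6 times, and Cdc45 under it, at 3.51 times. Of all 13052 tested genes, 872 (6.68%) showed such a gap among organoids. Of 8266 tested genes with at least 10 CPM on average in 2D culture, as all members have, 255 (3.08%) did. Of the 3903 of these genes whose median organoid level lay within the members' range of 3.18 to 33.9 CPM, 179 (4.59%) did. The lowest library was organoid 3 in 107 of the 179, organoid 2 in 71 and organoid 1 in 1. Organoid libraries in general differed more, with Spearman correlations of 0.847 to 0.913 against 0.992 to 0.994 within 2D culture.

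The make-up of the helicase transcripts, which does not depend on how libraries are scaled, was even across 2D culture and uneven across organoids. Summed over Mcm2 to Mcm7, the level was 716, 659 and 756 CPM in 2D culture and 102, 66.7 and 98.6 CPM in organoids. The share of Mcm2 in that sum was 16.5%, 17.2% and 18.4% in 2D culture and 33.5%, 50.9% and 23.7% in organoids, higher in every organoid than in any 2D library. Mcm7 held 13.4% to 14.3% of the sum in 2D culture and 16.4%, 25.3% and 30.5% in organoids. The share of Mcm3 was 12.3% to 13.5% in 2D culture and 7.48%, 9.73% and 0.192% in organoids. Mcm6 kept a share of 20.3% and 24.1% in organoids 1 and 3, near its 19.8% to 21.3% in 2D culture, and had 0.721% in organoid 2. The proteins act as a ring with 1 copy of each subunit, and protein was not measured.

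**Figure D3:**
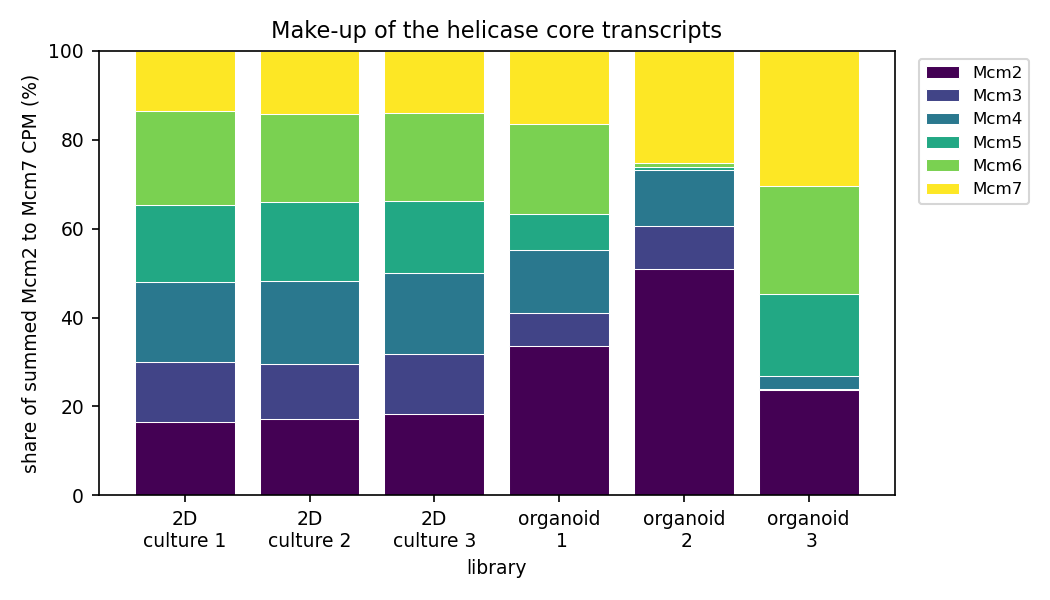
Share of each subunit (y axis, %) in the summed CPM of Mcm2 to Mcm7 in each of the 6 libraries (x axis); shares are not corrected for transcript length, so they compare 1 gene across libraries. The 3 bars of 2D culture look alike, Mcm5 and Mcm6 are nearly missing from organoid 2, and Mcm3 is nearly missing from organoid 3.

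The genes that act around the ring did not all follow it. In 6 of 11 genes of origin recognition and licensing control every organoid lay below every 2D library, against 30.2% of all tested genes. In 1 of them every organoid lay above. Of these 11 genes, 3 were called lower, 0 higher and 8 not, with a median log2 fold change of -0.781, where 12.6% of all tested genes were called lower. Orc1, the subunit of the origin recognition complex whose level cycles, fell from 17.9, 16.7 and 19.2 CPM to 1, 0.361 and 0.568 CPM (-4.79 ± 0.52, edgeR adjusted p = 0.00159), the deepest change of this list. The Orc1 call held in every alternative fit. Orc6 fell by 1.59 on the log2 scale (adjusted p = 0.0345), a call lost without each 2D library and without organoid 1 or 2 (adjusted p = 0.0556 to 0.118). Gmnn, which encodes geminin, the inhibitor of Cdt1, fell from 35.2, 34.5 and 35.3 CPM to 6.01, 4.39 and 12.3 CPM (-2.20 ± 0.42, edgeR adjusted p = 0.012), and was not called without 2D culture 1, 2 or 3 (adjusted p = 0.0549 to 0.0599). Orc2, Orc3, Orc4 and Orc5 were not called, with log2 fold changes of 0.09, 0.69, -0.78 and -0.39. The other uncalled genes were Dtl (-4.03, edgeR adjusted p = 0.0568), Fbxo5 (-1.29, 0.0567), Skp2 (-0.54, 0.591) and Kat7 (-0.05, 0.87). Dtl and Fbxo5 were lower in every organoid than in any 2D library. By DESeq2 and by limma-voom 1 gene of the list was called higher, and 1 was higher at an unadjusted p under 0.05 in edgeR. Orc4 had fractional counts in 6 libraries and Orc5 was at 1.61 CPM in organoid 3 against 23.3 and 35.6 CPM in the other organoids. The list gave 1 call without any 1 of the 2D libraries and 7 without organoid 3, where 2.98% to 3.27% and 17.3% of all tested genes were called lower.

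The relatives and binding partners of the ring gave no called gene, and in 0 of these 5 did every organoid lie below every 2D library. Mcm8 and Mcm9, which form a separate helicase used in recombination repair, had log2 fold changes of -0.70 ± 0.49 and -0.31 ± 0.88. Mcm9, with fractional counts in all 6 libraries, was at 0.71 CPM in organoid 3 against 10.7 and 11.5 CPM in the others. The remaining 3 were Mcmbp, which binds Mcm proteins (0.43 ± 0.48), Mcm3ap, an Mcm3-associated protein of mRNA export (0.18 ± 0.23), and Mcmdc2, a meiotic relative (1.30 ± 0.60). None of these 5 genes was called in either direction in edgeR, DESeq2 or limma-voom, and 0 had an unadjusted p under 0.05 in edgeR.

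Among 19 genes of the GINS complex, origin firing and the fork, 4 were called lower and 0 higher, with a median of -1.86. Over all tested genes 12.6% were called lower. In 16 of the 19 every organoid lay below every 2D library, against 30.2% of all tested genes. Gins1, a GINS subunit, fell from 15.4, 17 and 16.9 CPM to 0.648 CPM in organoid 1 and 0 counts in organoids 2 and 3 (-6.26 ± 1.38, edgeR adjusted p = 0.0184). That fold rests on 11 counts in organoid 1, and without this library, where all organoid counts are 0, the fitted value of -11.79 depends on the prior count and is no bound. Ccne1, the cyclin that drives entry into S phase with Cdk2, fell (-2.69), as did Cdk2 itself (-1.35; adjusted p = 0.0133 and 0.033). Tipin, a fork protection factor, fell too (-1.68, adjusted p = 0.0153). Gins2 was not called (-0.24 ± 0.45) and had fractional counts in 6 libraries. Gins3 (-4.34 ± 1.64, edgeR adjusted p = 0.0933) and Gins4 (-2.46 ± 1.21, 0.178) were not called but lay below all 2D libraries in every organoid. Gins3 had 0 counts in organoids 2 and 3. Here 7 of the 19 genes had a lone low organoid by the same 8-fold measure, against 6.68% of all tested genes, among them Timeless, the partner of Tipin, at 10.4, 6.25 and 0 CPM, and Ccna2, the S phase cyclin, at 13.7, 0.18 and 61.7 CPM. These 2 were named after their values were seen. The 4 calls were lost without any 1 of the 2D libraries, where 2.98% to 3.27% of all tested genes were called lower. Without organoid 2 and 3, 8 and 12 genes were called lower, against 19.2% and 17.3% of all tested genes.

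Among 19 regulators of the E2F and retinoblastoma families, 4 were called lower and 2 higher, with a median of -1.04, where 12.6% and 14.9% of all tested genes were called lower and higher. Every organoid lay below every 2D library in 10 of the 19, against 30.2% of all tested genes, and above in 2. Rb1, the retinoblastoma protein that holds E2F factors in check, rose from 6.41, 6.42 and 6.16 CPM to 48.2, 62.8 and 58.7 CPM (3.16 ± 0.23, edgeR adjusted p = 0.000465). The organoids were close to each other and all far above 2D culture, and the call held in every alternative fit (2.56 with total library size). Rbl2, the second called rise and a retinoblastoma relative linked to resting cells, changed by 0.96 ± 0.28 (adjusted p = 0.045), had fractional counts in 6 libraries and lost its call in 9 of the 12 alternative fits, among them total library size (0.34, adjusted p = 0.429). The called falls included E2f7, an E2F repressor (-2.82), Foxm1, a factor for G2 and M phase genes (-1.98), and Tfdp1, the shared partner of E2F proteins (-1.09; adjusted p = 0.01, 0.02 and 0.0098). Foxm1 and Tfdp1 were not called without any 1 of the 2D libraries, nor E2f7 without 2D culture 3 or with a weight per group in limma-voom (adjusted p = 0.0571 to 0.087). The activator E2f1 was low throughout, at 7.05, 8.96 and 6.62 CPM and 3.83, 5.77 and 0 CPM, and was not called (adjusted p = 0.533). At most 1 gene of this list was called lower without a 2D library, and 8 without organoid 3, against 2.98% to 3.27% and 17.3% of all tested genes.

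Set beside the members, DNA synthesis genes had 18 of 26 called lower (median -1.73) and mitosis genes 17 of 22 (median -2.13), against 12.6% of all tested genes. Every organoid lay below every 2D library in 23 of the 26 and in all 22, against 30.2% of all tested genes. Called higher were 0 in either list or in the GINS list, also at an unadjusted p under 0.05 and by DESeq2 and limma-voom. Differences between lists were not tested. Pcna, the sliding clamp of the polymerases, fell from 84.4, 92.1 and 92.7 CPM to 18.9, 27 and 35.6 CPM (-1.72 ± 0.27, edgeR adjusted p = 0.00631). Pola2, Rrm2, Tk1 and Prim1, which prime DNA or supply its building blocks, had log2 fold changes of -3.58, -3.50, -2.83 and -2.25 and were called lower. Ttk, Cdc20, Aurka and Kif20a, which act in mitosis and cell division, had -3.82, -3.03, -2.85 and -2.52 and were called lower. Rrm2 and Kif20a had fractional counts in 6 libraries and Aurka in 3. Pola2, Rrm2, Cdc20, Aurka and Kif20a were not called without any 1 of the 2D libraries or without organoid 1 (adjusted p = 0.0582 to 0.125). The list counts fell to 7 or 8 and to 7 without a 2D library, where 2.98% to 3.27% of all tested genes were called lower. The mitosis count was 11 without organoid 1, against 17.1% of all tested genes. Mki67, a marker of cycling cells, was at 96.5, 102 and 90.5 CPM and 24.6, 49 and 61.6 CPM and was not called (-1.10 ± 0.34, adjusted p = 0.0548), although it passed without organoid 1 or 3, with total library size, and in DESeq2 and both limma-voom fits (adjusted p = 0.0155 to 0.0344). A lone low organoid was seen in 1 of 26 DNA synthesis genes and 1 of 22 mitosis genes, and in 3 of the 19 E2F and RB regulators, 1 of 11 origin recognition and licensing control genes and 1 of 5 MCM relatives. This measure does not count genes near 0 in 2 organoids. Such DNA synthesis genes were Prim2 (8.48, 0.0601 and 0 CPM) and Pole2 (1.71, 0 and 0 CPM).

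**Figure D4:**
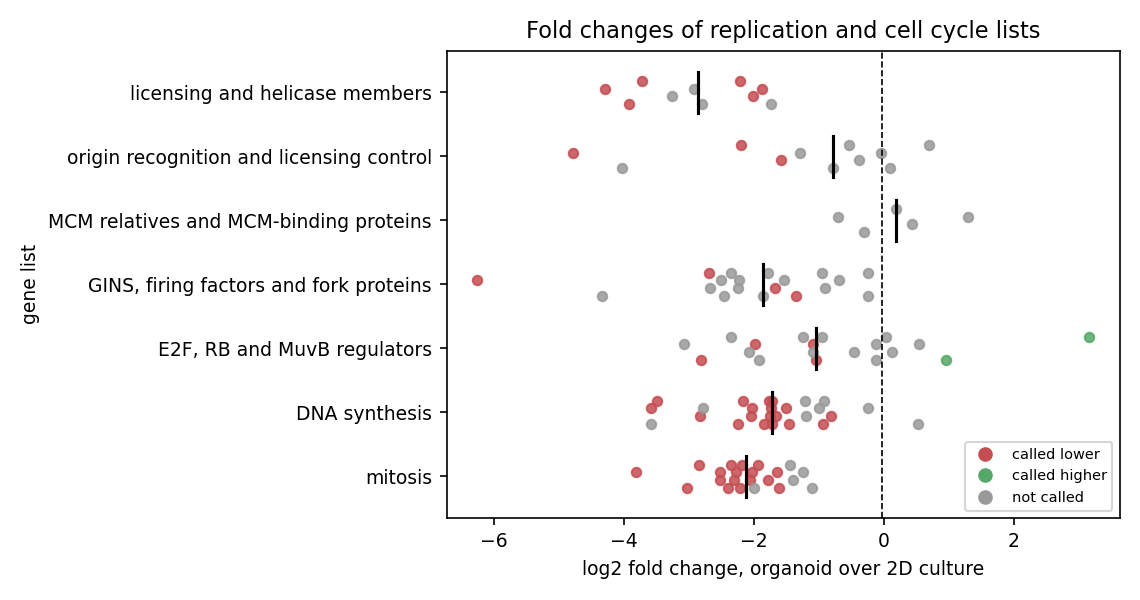
Log2 fold change, organoid over 2D culture (x axis), of each tested gene in the 7 lists (y axis); colours give the call at an edgeR adjusted p under 0.05, black bars the list medians, and the dashed line the median of all tested genes. The members lie between -4.29 and -1.74, and Rb1 stands alone at 3.16.

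By profile over the 6 libraries, the genes nearest to the mean of the 10 members, out of 10274 other tested genes of at least 5 CPM, were Pea15, Slc66a3, Thbs1, Col4a2, LOC100361025, Hacd1, Gpnmb and Bok. Their root-mean-square distance in centred log2 CPM was 0.149 to 0.326. Pea15 was at 663, 604 and 643 CPM in 2D culture and 94.9, 42.7 and 51.6 CPM in organoids. None of the 8 belongs to the replication or cell cycle lists above. The mean profile averages the differing orders of the members, and the members' own distances to it ran from 0.766 (Mcm4) to 1.86 (Mcm3), farther than any of the 8 genes.

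Library totals were 18592574 to 26472447 estimated counts, so that 3 counts correspond to 0.0917 to 0.18 CPM. Chondrocyte markers summed to 1500 to 1600 CPM in 2D culture, nearly all of it Acan, and to 11500 to 98700 CPM in organoids; Col2a1, the defining collagen of cartilage, was at 2.91 to 4.89 CPM in 2D culture, and Matn1 had 1 count there. All 5 osteoblast markers were higher in every organoid (sums of 207 to 219 and 11800 to 19800 CPM), and 5 fibroblast and tendon markers summed to 1560 to 1570 and 248 to 429 CPM. Thy1 made up 1400 to 1420 CPM of that sum in 2D culture and 233, 105 and 346 CPM in organoids. Thy1, Tnmd and Scx were called lower (log2 fold changes of -2.63, -6.36 and -3.06), while Pdgfra and Dpt were not called (0.41 and 1.95). Endothelial markers summed to at most 2.47 CPM in any library, with Cdh5 and Emcn at 0 in 2D culture and Kdr at 0 in organoids. The 6 macrophage and osteoclast markers summed to 135 to 138 and 88.2 to 213 CPM, mostly Ctsk, with Adgre1 at 0 throughout, Ptprc at 0 in 2D culture and Tnfrsf11a at 0 in organoids. Csf1r, a receptor of macrophages and osteoclast precursors, was at 32.5, 16.7 and 0.142 CPM in organoids and at most 0.279 CPM in 2D culture. Skeletal muscle markers summed to 0.0917 to 0.495 and 0.24 to 4.30 CPM. These shifts moved with the fall of the 10 genes, and their part in it was not tested.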

How the data were processed

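Total RNA was extracted with Trizol and sequenced as mRNA libraries on the DNBSEQ platform, per the labels' protocols. The authors deposited expected counts (estimated counts per gene, not normalised) for each of 6 libraries. Per the submitters' processing notes the tools were RSEM, Bowtie2, HISAT, HISAT2 and DESeq2, with neither version nor role. Build, annotation and strandedness of the counting: not given in the sources used here. Of 17954 gene IDs, 17720 matched the RefSeq table of GRCr8, which served for names and promoters. There the spans of Mcm3 and Mcm6 overlap the pseudogene Cct7-ps4 and the tRNA gene Trnas-aga41.

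Counts were rounded to whole numbers and analysed in R 4.3.3 with edgeR 4.0.16: filterByExpr (minimum count 10, 13052 genes kept), TMM scaling, robust quasi-likelihood F-test of organoid against 2D culture without a block, Benjamini-Hochberg adjustment over all tested genes, calls under 0.05. Standard errors were derived from the F statistic (|log2 fold change| / √F). Log2 CPM for profiles used a prior count of 2. Alternatives were total library size, DESeq2 1.42.0, limma-voom 3.58.1 without and with a weight per group, no filter, a replicate block and leaving out each library. Intervals are 95% exact and cover counting error only. Replicates of a group all differed by more than sampling noise (lowest chi-square per degree of freedom 9.11). The steps were tested on simulated counts. A limit on false calls was set there for the edgeR test only, since DESeq2 was too liberal at this spread.

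Members and lists were chosen with earlier results of these data known. The genes named are all members, in each other list up to 4 called genes (1 CPM or more) ranked by size of change plus the top one of opposite sign, lists of up to 5 genes whole, Pcna and Mki67, and the 8 genes nearest in profile. Rbl2, E2f1, Gins2 to Gins4, Orc2 to Orc5, Dtl, Fbxo5, Skp2, Kat7, Prim2, Pole2, Timeless and Ccna2 were added after their values were seen.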

Additional observations from a re-analysis of the deposited data

How the results depend on the processing

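All 10 members kept a negative log2 fold change in all 12 alternative fits. Of their 120 values, 88 stayed on the same side of the threshold, 12 lost a call and 20 gained one. Leaving out 1 library gave 3 to 9 members called lower, against 6 in the full set, and 1109 to 5321 genes called in all, against 3594. The lists moved likewise when 1 library was left out: 1 to 7 lower for origin recognition and licensing control, 0 to 12 for GINS, firing factors and fork proteins, 0 to 8 for E2F, RB and MuvB regulators, 7 to 19 for DNA synthesis and 7 to 20 for mitosis. These fits called 2.98% to 19.2% of all tested genes lower. DESeq2 and limma-voom each called all 10 members lower, in fits that called 17.3% and 19.4% of all tested genes lower against 12.6%. DESeq2 called genes too freely on simulated counts, so its added calls are less certain. No limit on false calls was set for limma-voom either. The simulated counts had the same spread in both groups, unlike these libraries, so they cannot tell how often any of these tests errs here. The members' median log2 fold change was -4.23 in limma-voom, -4.22 with a weight per group, -3.64 with the replicate block and -3.51 with total library size, against -2.86. In the order origin recognition, GINS and E2F lists, DESeq2 called 5, 8 and 7 genes lower, limma-voom 5, 11 and 7, and total library size 7, 9 and 7. With a weight per group limma-voom called 8 GINS list genes and 8 members, and 14% of all tested genes were called lower there. With total library size it was 27%. Total library size called 9 members, after a shift of the median of all genes from -0.03 to -0.65, with 76.9% of calls lower against 45.9%. Deviations of same-numbered libraries from their group means correlated weakly (0.0606, 0.187 and 0.0207). The labels name no shared origin, so whether these libraries form pairs cannot be told. With the replicate block 7 members and 2730 genes were called, and Mcm6 joined the members called (adjusted p = 0.0382). Libraries 1 and 2 of 2D culture correlated best with the organoid of their own number and library 3 did not. Among the other 102 list genes, 1224 values gave 0 reversals, 124 lost calls and 103 gained ones. The lowest values rest on few counts, with 1 to 9 counts behind 5 organoid values. The intervals given cover counting error only and not the spread between organoid libraries. Why these values were low was not tested.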
